A study of Homo sapiens with 12 samples.

Results

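Apolipoproteins and the protein that loads lipid onto them were followed in 2 human liver cancer cell lines in which EGR1, a zinc finger transcription factor, had been raised or targeted. The members were 10 of the 22963 gene names in the deposited expression table, taken by name: APOA1, APOA2, APOA4, APOB, APOC1, APOC3, APOE, APOH, APOM and MTTP. The topic was chosen because APOA1 stood higher in EGR1-overexpressing cells, so the values of the overexpression comparison are a description with no p, and the question was whether that higher level was shared by the genes next to APOA1 or by other apolipoproteins.

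The 12 RNA-seq libraries form 4 groups, each with 3 libraries. The hepatoma line PLC/PRF5 carried the empty vector or overexpressed EGR1 from a CMV promoter on a lentiviral plasmid that holds the EGR1 coding sequence. MHCC97H cells, a hepatocellular carcinoma line, were parental (genotype WT) or labelled EGR1 knockout, and the knockout lines of the study were made by CRISPR/Cas9 as single clones. Whether the labelled libraries came from 1 clone is not stated. All cells grew in DMEM with serum. The labels number the libraries as biological replicates and do not say that they came from separate cultures, so p-values measure only the spread between these libraries.

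Apolipoproteins are the protein coats of the particles that carry fat and cholesterol in blood, and hepatocytes make most of them. APOB is the large structural protein of very low density lipoprotein, and MTTP, the microsomal triglyceride transfer protein, loads lipid onto it in the endoplasmic reticulum. APOA1 and APOA2 are the main proteins of high density lipoprotein (HDL), and the smaller exchangeable proteins, among them APOC1, APOC3 and APOE, move between particles and steer their lipolysis and uptake. Several of the genes sit in clusters, APOA1 with APOC3, APOA4 and APOA5 on chromosome 11 and APOE with APOC1, APOC4 and APOC2 on chromosome 19.

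APOA1 occupies chromosome 11, minus strand, bases 116835751 to 116837950 (GRCh38, GENCODE release 29). APOC3 lies 2.7 kb away on the plus strand from 116829706 to 116833072, and APOA4 lies 12.4 kb away on the minus strand from 116820700 to 116823306. On chromosome 19, APOE lies on the plus strand from 44905754 to 44909393 and APOC1 lies 4.9 kb downstream from 44914247 to 44919349. RefSeq promoter windows on GRCh38.p14, from 250 bases before to 50 after an annotated start, were at hand for 7 of the 10 members, with 10 windows in all. APOA1, APOB and APOC3 had no entry. The windows of the 2 members outside APOA1 whose level differed most in the overexpression comparison (APOE and APOC1), of their cluster neighbour APOC2 and of APOA4 in the APOA1 cluster are printed 5′ to 3′ on the strand of the gene. Capitals mark the letters found by the search described next.

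APOE, chr19:44905546-44905845, plus strand: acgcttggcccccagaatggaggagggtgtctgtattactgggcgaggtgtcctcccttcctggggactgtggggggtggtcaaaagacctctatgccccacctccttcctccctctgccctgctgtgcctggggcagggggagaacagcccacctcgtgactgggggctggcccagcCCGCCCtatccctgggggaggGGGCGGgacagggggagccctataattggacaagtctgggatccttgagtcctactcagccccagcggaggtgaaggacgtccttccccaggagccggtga
APOC1, chr19:44914422-44914721, plus strand: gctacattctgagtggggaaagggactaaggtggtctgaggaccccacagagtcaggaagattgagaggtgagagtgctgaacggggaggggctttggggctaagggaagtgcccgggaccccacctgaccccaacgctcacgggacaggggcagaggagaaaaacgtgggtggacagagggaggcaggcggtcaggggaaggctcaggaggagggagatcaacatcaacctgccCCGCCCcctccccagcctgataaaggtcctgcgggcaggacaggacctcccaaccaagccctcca
APOC2, chr19:44945801-44946100, plus strand: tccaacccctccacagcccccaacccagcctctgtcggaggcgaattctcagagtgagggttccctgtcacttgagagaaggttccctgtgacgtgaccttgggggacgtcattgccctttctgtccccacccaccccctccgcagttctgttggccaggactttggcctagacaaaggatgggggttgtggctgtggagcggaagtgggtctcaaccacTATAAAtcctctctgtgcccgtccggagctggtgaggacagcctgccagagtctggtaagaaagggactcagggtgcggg
APOA4, chr11:116823255-116823554, minus strand: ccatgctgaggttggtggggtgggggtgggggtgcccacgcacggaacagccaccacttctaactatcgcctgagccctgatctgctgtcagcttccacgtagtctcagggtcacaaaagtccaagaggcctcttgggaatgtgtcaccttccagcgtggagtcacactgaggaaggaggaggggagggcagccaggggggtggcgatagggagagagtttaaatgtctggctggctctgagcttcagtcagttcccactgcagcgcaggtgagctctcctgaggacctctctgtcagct

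The search covered both strands for 2 spellings of the EGR1 site, GCGTGGGCG and GCGGGGGCG, for the GC box GGGCGG, for the HNF4 site CAAAGTCCA and for the TATA box TATAAA, and no 2 matches shared bases. Neither EGR1 spelling was found in the 10 windows of members or in the APOC2 window, against 0.795% and 5.07% of all 35116 windows of the same length. The printed APOE window, the first of 3, held the GC box 51 bases before the start on the gene's strand (offset -51) and on the opposite strand at offset -72, and the APOC1 window held it on the opposite strand at offset -15. The other two APOE windows held none of the 5 spellings. Of the windows of MTTP, which are not printed, the first held the GC box at offsets -108 and -7 and the second TATAAA on the opposite strand at offset -227. The GC box was in 45.0% of all windows. The APOC2 window held TATAAA at offset -30, a sequence in 11.5% of all windows. The HNF4 site was in 0.384% of all windows and in none of the members' windows, and no capitals stand in the APOA4 window because none of the 5 spellings was found there. A match is a description of letters, and its absence says only that these letters are not in these windows.

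EGR1 itself had a mean FPKM of 1.81 ± 0.328 (SD, n = 3) in vector cells and 52.9 ± 3.10 in EGR1 cells. FPKM divides the fragments of a gene by its transcript length and the library's mapped total, giving a level per length, so genes can be set side by side. In MHCC97H cells EGR1 had an FPKM of 21.5 ± 1.48 in parental cells and 39.5 ± 9.43 in the libraries labelled knockout. Its mRNA was therefore higher in the libraries labelled knockout, by 0.83 on the log2(FPKM + 1) scale (SE 0.15, limma adjusted p = 0.00126), and that label is used below without a claim that EGR1 mRNA was lost. With the correction for GC content and transcript length described below, the difference was 0.49 (SE 0.17, limma adjusted p = 0.0488). The study checked its knockout clones by western blot and DNA sequencing. EGR1 protein cannot be read from these libraries. FPKM summed to between 376335 and 437652 in a library, and the depth in reads is unknown. Hepatocyte markers whose FPKM averaged 1 or more numbered 11 of 12 in vector cells, 11 in EGR1 cells, 7 in parental MHCC97H cells and 10 in the libraries labelled knockout. In parental MHCC97H cells the defining hepatocyte markers ALB and SERPINA1 had a mean FPKM of 0.885 and 0.212. The macrophage marker MARCO and the enterocyte markers CDX1 and FABP2 were listed at 0 in all 12 libraries. Markers of endothelial and stromal cells summed to an FPKM of 1.79 to 6.55 in a library, macrophage markers to 125 to 215 in PLC/PRF5 and 26.7 to 56.3 in MHCC97H libraries, and enterocyte markers to 63.6 to 137 and 13.2 to 19.8. In vector cells LYZ (mean FPKM 142) and CD68 (37.6) made up most of the macrophage sum, and ANPEP (77.9) and VIL1 (48.6) most of the enterocyte sum. Of the other macrophage markers, PTPRC was listed at 0 in each PLC/PRF5 library, and CD163 and CSF1R averaged 0.0880 and 0.0164 in vector cells. In bulk RNA, fewer cells of a type and less RNA per cell cannot be told apart.

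The members made up a larger part of the transcriptome in EGR1 cells. Their summed FPKM was 587 ± 13.3 (SD, n = 3) in vector cells and 1146 ± 87.8 in EGR1 cells, or 0.142% to 0.146% against 0.270% to 0.280% of a library's FPKM. In MHCC97H cells the sum was 89.7 ± 5.44 in parental cells and 88.8 ± 7.61 in the libraries labelled knockout, 0.0227% to 0.0251% against 0.0200% to 0.0221%. The order of the levels differed between the lines. In vector cells APOE led, followed by APOB, APOC1, APOA2, APOM, MTTP, APOH, APOA1, APOC3 and APOA4, and the neighbours in this order that overlapped between libraries were APOC1 with APOA2 and MTTP with APOH. In EGR1 cells APOA1 moved from the eighth to the fourth place, between APOC1 and APOA2, and APOB and APOC1 were the only neighbours in the order that overlapped. In parental MHCC97H cells APOC1 led, followed by APOH, APOE, MTTP and APOB, and no 2 neighbours among these overlapped.

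**Figure D1:**
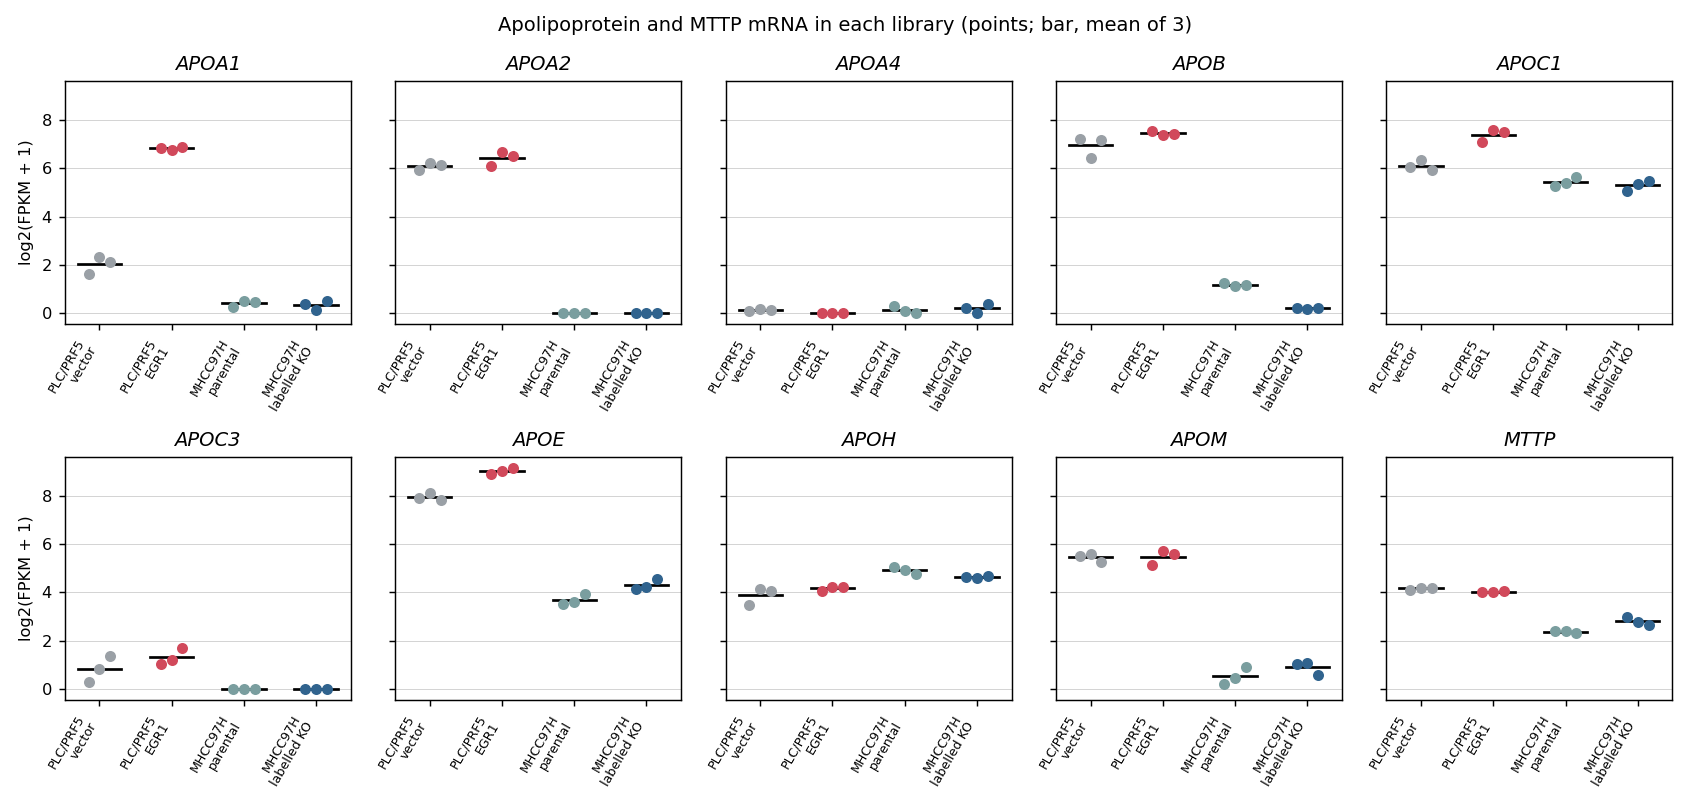
Level of each of the 10 members as log2(FPKM + 1) in every library, with points for the 3 libraries of each group and a bar for their mean. APOA1 is near 2 in vector cells and near 7 in EGR1 cells, APOC1 and APOE are also higher in EGR1 cells, and APOA2, APOB, APOE and APOM are far lower in both MHCC97H groups.

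The first comparison asked which members differed when EGR1 was overexpressed in PLC/PRF5 cells. APOA1 was about 35.5 times as abundant in EGR1 cells as in vector cells, APOC1 about 2.46 times and APOE about 2.13 times, and these were the members called higher. APOA2, APOB, APOC3, APOH, APOM and MTTP were not called, and APOA4 was under the filter on low values. A gene was tested when its FPKM averaged 1 or more over the 6 libraries, and it was called when limma, fitted to log2(FPKM + 1), gave an adjusted p of at most 0.05. Of the 10 members 9 passed this filter, APOC3 with only 1 of its 3 vector libraries above 1, and 3 were called higher and none lower. Among all 11671 genes tested, 19.2% were called higher and 10.4% lower. Of the genes called, 64.8% were higher, and with quantile normalization 46.0% were, while the 3 members called stayed called higher under each setting tried. Since the topic was chosen on this comparison, nothing is read from the members' share or from their calls under other settings, which reuse the same values.

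APOA1, the HDL protein that accepts cholesterol from cells, had an FPKM of 2.06, 4.07 and 3.39 in the vector libraries. In the EGR1 libraries it was 114, 108 and 117. The groups were far apart, with even the lowest EGR1 library far above the highest vector library. The difference was 4.80 on the log2(FPKM + 1) scale (SE 0.16), the highest of the 11671 genes tested, rank 1. The annotation places an antisense gene, APOA1-AS, on the opposite strand of APOA1, and whether the counting used strand is not stated.

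APOA2, the other main HDL protein, had an FPKM of 60.3, 74.3 and 69.3 in vector libraries. It was 67.6, 100.0 and 90.0 in EGR1 libraries. The groups overlapped, because the lowest EGR1 library lay within the vector range. The difference was 0.32 (SE 0.15) and APOA2 was not called, though it was called with the correction for GC content and transcript length described below (difference 0.33, SE 0.09). Within a library, the ratio of APOA1 to APOA2 was 0.0460 ± 0.0106 (SD, n = 3) in vector cells and 1.35 ± 0.305 in EGR1 cells, so APOA1 passed APOA2 in each EGR1 library. APOM, a lipocalin carried on HDL that binds sphingosine 1-phosphate, had an FPKM of 44.8, 47.3 and 37.6 in vector libraries and 33.8, 51.1 and 47.7 in EGR1 libraries. Its groups overlapped throughout, with a difference of 0.02 (SE 0.16) whose sign turned with a common total (-0.01).

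APOC3, an inhibitor of lipoprotein lipase and the gene nearest to APOA1 in its cluster, had an FPKM of 0.210, 0.773 and 1.54 in vector libraries. It was 1.03, 1.27 and 2.26 in EGR1 libraries. EGR1 replicates 1 and 2 lay below the highest vector library, so the groups overlapped. The difference was 0.49 (SE 0.27) against 4.80 for APOA1, and APOC3 was not called. Without vector replicate 1 its difference was 0.22, and without vector replicate 3 it was 0.75. APOA4, a protein of intestinal lipoproteins, had an FPKM of 0.0623, 0.126 and 0.10 in vector libraries and was listed at 0 in the 3 EGR1 libraries. Its mean was under 1, so it was outside the test. It was called lower when every gene above 0 in at least 1 library was tested. It entered that fit only through its vector libraries, so nothing is read from the call.

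APOC1, a small protein of very low density lipoprotein and HDL that inhibits lipid transfer, had an FPKM of 65.2, 80.2 and 60.5 in vector libraries. In EGR1 libraries it was 134, 192 and 181. The groups did not overlap, and the lowest EGR1 library was well above the highest vector library. The difference was 1.28 (SE 0.15), rank 51 of the genes tested. APOE, the ligand by which remnant particles bind their receptors on liver cells, had an FPKM of 238, 275 and 226 in vector libraries and 479, 526 and 571 in EGR1 libraries. Its groups did not overlap either, and it remained the most abundant member. The difference was 1.09 (SE 0.11), rank 103. The ratio of APOE to APOC1 within a library was 3.61 ± 0.158 (SD, n = 3) in vector cells and 3.16 ± 0.415 in EGR1 cells, and these ratios overlapped between groups. The annotation places a gene, AC011481.3, over both APOE and APOC1 on their own strand. The deposited expression table does not name it, so how shared reads were assigned is unknown.

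APOB had an FPKM of 149, 85.8 and 144 in vector libraries. In EGR1 libraries it was 187, 167 and 172. The EGR1 libraries were all above the vector libraries, of which vector replicate 2 stood lowest. The difference of 0.51 (SE 0.19) was not called, and without vector replicate 2 it was 0.26. MTTP had an FPKM of 16.1, 17.1 and 17.4 in vector libraries and 15.2, 15.2 and 15.4 in EGR1 libraries, so that each EGR1 library lay slightly below each vector library. Its difference was -0.14 (SE 0.08) and was not called, but with the GC and length correction it was -0.23 (SE 0.06) and called lower. The ratio of APOB to MTTP was 7.50 ± 2.21 (SD, n = 3) in vector cells and 11.5 ± 0.692 in EGR1 cells. TRMT10A overlaps MTTP and BAG6 overlaps APOM on the opposite strand, so reads of these pairs may not be separable.

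APOH, or beta-2-glycoprotein I, a plasma protein that binds anionic phospholipid, had an FPKM of 10.1, 16.5 and 15.4 in vector libraries. It was 15.4, 17.9 and 17.6 in EGR1 libraries. Vector replicate 2 lay within the EGR1 range, and the other two vector libraries lay below the lowest EGR1 library, with vector replicate 1 lowest. The difference was 0.29 (SE 0.16) and was not called, and without vector replicate 1 it was 0.08.

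Of the 9 members tested, 5 had groups that did not overlap (APOA1, APOB, APOC1 and APOE higher in EGR1 cells and MTTP lower), beside 47.7% of all genes tested. A correction was made for transcript GC content and length, which together accounted for 18.5% of the variance of the differences over genes. With it, 25.6% of genes were called higher and 11.7% lower, and 5 members were called, APOA1, APOA2, APOC1 and APOE higher and MTTP lower. Hepatocyte markers moved in both directions, 3 of 11 tested being called higher and 2 lower, beside 19.2% and 10.4% of all genes tested. They summed to an FPKM of 4287 to 4505 in vector libraries and 4893 to 6223 in EGR1 libraries. TTR was the hepatocyte marker listed at 0 in the EGR1 libraries. The part of these markers in the apolipoprotein differences was not tested.

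**Figure D2:**
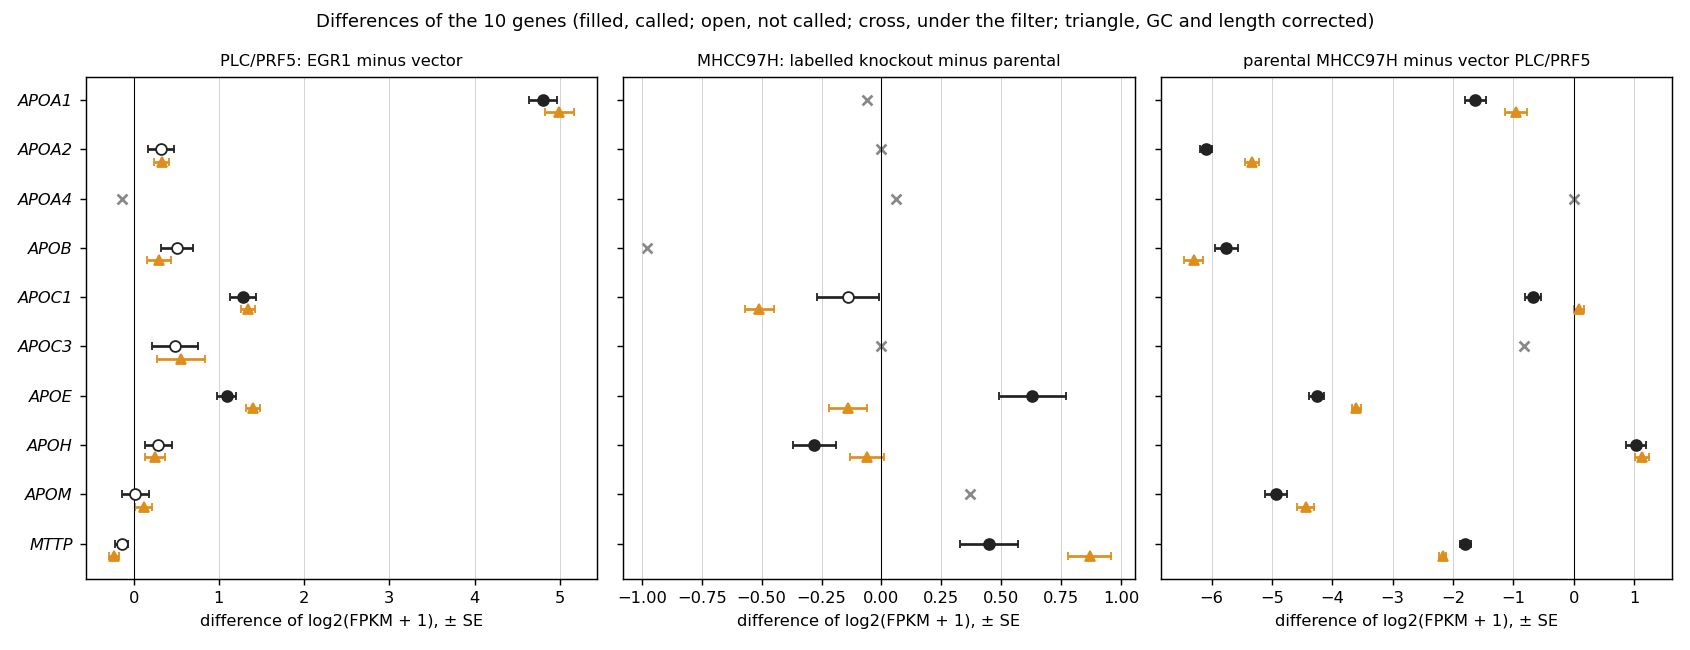
Difference of each member on the log2(FPKM + 1) scale with its standard error in the 3 comparisons, circles as deposited and triangles after GC and length correction. In the left panel APOA1 stands alone near 5 with APOC1 and APOE near 1, and in the middle panel APOE lies on opposite sides of 0 before and after the correction.

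The genes around APOA1 addressed whether its higher level was shared along chromosome 11. The deposited table held 7 genes within 200 kb of APOA1, all of them protein-coding, namely BUD13, ZPR1, APOA5, APOA4, APOC3, APOA1 and SIK3. Of the other 6, 4 were tested, and 1, ZPR1, was called higher, beside 19.2% of all genes tested. ZPR1, a zinc finger protein gene 47.7 kb away, had an FPKM of 9.23 ± 0.475 (SD, n = 3) in vector cells and 12.5 ± 1.02 in EGR1 cells, a difference of 0.40 (SE 0.09). BUD13, which encodes a splicing factor, differed by 0.27 (SE 0.10), and SIK3, a salt-inducible kinase gene whose nearer end lies 5.5 kb from APOA1, by 0.31 (SE 0.14). Neither was called, although each was with the GC and length correction. APOA5, a regulator of triglyceride clearance, was listed at 0 in 2 of the 3 libraries of each PLC/PRF5 group. The median of the 4 neighbours tested was 0.35, and that of all genes tested was 0.09. The call of ZPR1 was lost with quantile normalization and without vector replicate 3, EGR1 replicate 2 or EGR1 replicate 3, each of which left 0 neighbours called, while 2 were called without EGR1 replicate 1. APOA1 thus differed by 4.80 in a window whose other tested genes differed by 0.27 to 0.49. With 0.1 in place of 1 added to the FPKM, APOC3 differed by 1.02 and was not called, and APOA1 differed by 5.16.

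Around APOE on chromosome 19 the table held 18 genes within 200 kb. Of the other 17, 13 were tested, with 2 called higher and 4 lower, beside 19.2% and 10.4% of all genes tested. The median difference of the 13 was -0.01. Both genes called higher were apolipoproteins, APOC1 and APOC2. APOC2, the activator of lipoprotein lipase, 36.6 kb from APOE, had an FPKM of 1.59, 1.67 and 2.11 in vector libraries and 8.88, 10.5 and 11.3 in EGR1 libraries. Its difference was 2.01 (SE 0.12), larger than those of APOC1 and APOE, and the groups were far apart. The readthrough gene APOC4-APOC2 shares exons with APOC2, so the division of reads between them is uncertain, and it had a mean FPKM of 0.0923 in vector cells and 0.658 in EGR1 cells. APOC4 was listed at 0 in all 12 libraries.

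No other gene of this window was called higher as deposited. TOMM40, a mitochondrial import pore gene that ends 2.1 kb before APOE, had an FPKM of 150 ± 14.5 (SD, n = 3) in vector cells and 147 ± 8.63 in EGR1 cells, a difference of -0.03 (SE 0.10). NECTIN2, a cell adhesion gene, was called lower by 0.64 on the log2 scale, with a mean FPKM of 88.0 in vector cells and 56.0 in EGR1 cells. BCAM, the Lutheran blood group adhesion gene, was called lower as well, with a mean FPKM of 6.60 and 3.34. CLPTM1, the nearest gene on the far side of APOC2, had a difference of -0.34 (SE 0.09), and BCL3, a nuclear IκB family gene, one of -0.46 (SE 0.11). RELB, CLASRP, ZNF296, GEMIN7, MARK4, PPP1R37 and TOMM40 were not called. With the GC and length correction 6 of the 13 were called higher and 3 lower, and the call of BCL3 was lost.

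**Figure D3:**
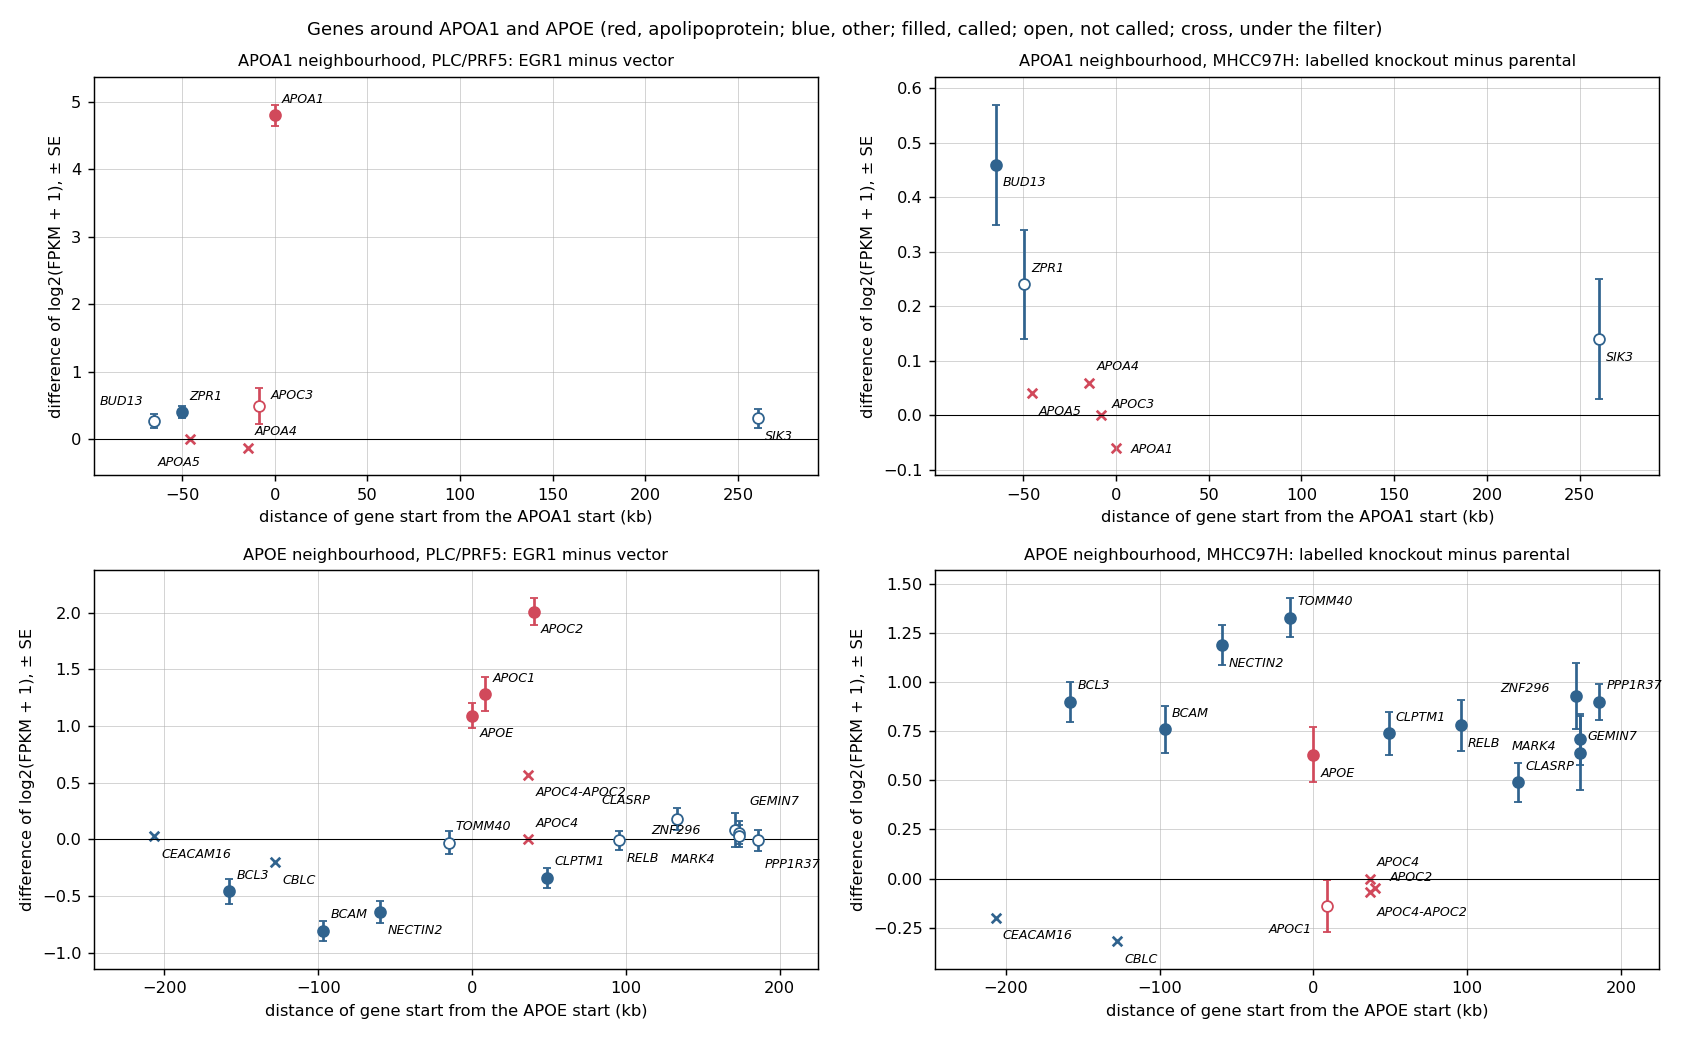
Differences of genes within 200 kb of APOA1 (top) and APOE (bottom) against the distance of their start from that of APOA1 or APOE in kb, with standard errors, for EGR1 overexpression (left) and the libraries labelled knockout (right). On the left APOA1 stands far above its neighbours, whereas APOC2, APOC1 and APOE stand together above 1, and on the right 11 of the 12 other tested genes around APOE are called above 0, APOC1 being the exception.

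The second comparison set MHCC97H libraries labelled knockout against parental libraries. APOE and MTTP rose and APOH fell, and APOC1 was not called. Only these 4 of the 10 members reached the mean FPKM of 1 needed for testing, so 2 were called higher and 1 lower, beside 34.8% and 31.5% of all 11577 genes tested. Transcript GC content and length accounted for 54.3% of the variance of the differences here, and with their correction 27.6% of genes were called higher and 18.3% lower. Scaling to a common total moved the median difference of all genes by -0.13 and the share of called genes that were higher from 52.5% to 41.5%. The effect of these settings is given beside each member.

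APOE had an FPKM of 10.5, 11.1 and 14.3 in parental libraries. It was 16.8, 17.8 and 22.4 in libraries labelled knockout. The groups did not overlap, and the difference was 0.63 (SE 0.14, limma adjusted p = 0.00397). The APOE transcript has a GC content of 68.5%, the highest of the members, and after the correction the difference was -0.14 (SE 0.08, adjusted p = 0.171), which turned its direction. APOC1 had an FPKM of 37.5, 41.1 and 48.8 in parental libraries and 32.0, 40.3 and 43.4 in libraries labelled knockout. The groups overlapped, with a difference of -0.14 (SE 0.13, adjusted p = 0.383), but after the correction it was called lower (-0.51, SE 0.06, adjusted p = 4.33e-04), as it was with quantile normalization (adjusted p = 0.0407). The ratio of APOE to APOC1 was 0.281 ± 0.0118 (SD, n = 3) in parental libraries and 0.495 ± 0.0454 in libraries labelled knockout, without overlap.

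MTTP had an FPKM of 4.30, 4.23 and 3.91 in parental libraries. It was 6.96, 5.86 and 5.31 in libraries labelled knockout. The groups did not overlap, and the difference of 0.45 (SE 0.12, adjusted p = 0.00784) grew to 0.87 (adjusted p = 1.99e-04) with the correction, while scaling to a common total left 0.32 and ended the call (adjusted p = 0.0547). APOB, its partner in particle assembly, had an FPKM of 1.40, 1.20 and 1.21 in parental libraries and 0.171, 0.128 and 0.151 in libraries labelled knockout. Each labelled library was below each parental one, and the parental mean was 8.48 times that of the labelled libraries. The mean of the 6 libraries was under 1, so APOB was outside the test. When every gene above 0 in at least 1 library was tested, the difference of -0.98 (SE 0.06) was called (adjusted p = 5.35e-04). APOB and MTTP thus stood on opposite sides of 0, and the ratio of APOB to MTTP was 0.307 ± 0.0205 (SD, n = 3) in parental libraries and 0.0249 ± 0.00326 in labelled ones.

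APOH had an FPKM of 31.6, 29.0 and 26.4 in parental libraries. It was 24.1, 22.8 and 24.3 in libraries labelled knockout. The groups did not overlap, with a difference of -0.28 (SE 0.09, adjusted p = 0.0257). The call ended with the correction (-0.06, adjusted p = 0.504), with all 12 libraries in one fit (adjusted p = 0.104) and without parental replicate 1 (adjusted p = 0.0910), parental replicate 2 (0.0834), knockout-labelled replicate 1 (0.0520) or knockout-labelled replicate 2 (0.0718). Of the 4 members tested 3 had groups that did not overlap, beside 71.8% of all genes tested.

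APOA1 was low in both MHCC97H groups. It had an FPKM of 0.185, 0.405 and 0.375 in parental libraries and 0.306, 0.0901 and 0.418 in libraries labelled knockout, values that overlapped. APOM had an FPKM of 0.157, 0.361 and 0.895 in parental libraries and 1.03, 1.12 and 0.494 in labelled ones, which overlapped too. APOA4 was at 0.241, 0.0582 and 0 in parental libraries and at 0.164, 0 and 0.291 in labelled ones. APOA2 and APOC3 were listed at 0 in all 6 libraries. None of these 5 members passed the filter. When every gene above 0 in at least 1 library was tested, APOA1 (adjusted p = 0.709), APOM (adjusted p = 0.224) and APOA4 (adjusted p = 0.695) were not called.

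Genes around APOE stood higher together in the libraries labelled knockout. Of the 12 other genes tested within 200 kb, 11 were called higher, APOC1 being the exception, beside 34.8% of all genes tested. The median of the 12 was 0.77, and that of all genes tested was 0.02. TOMM40 rose by 1.33 on the log2 scale (SE 0.10, adjusted p = 2.13e-05) and NECTIN2 by 1.19 (SE 0.10, adjusted p = 3.73e-05). After the GC and length correction 6 of the 12 were called higher and 1 lower, and the median was 0.18. TOMM40 was then at 0.88 (adjusted p = 1.94e-05) and NECTIN2 at 0.65 (adjusted p = 1.29e-04). Around APOA1, BUD13 was the only gene of 3 tested that was called as deposited (0.46, SE 0.11, adjusted p = 0.00589). After the correction BUD13 (0.26, SE 0.09, adjusted p = 0.0403) and ZPR1 (0.48, SE 0.09, adjusted p = 0.00283) were called higher. Of 9 hepatocyte markers tested, 7 were called higher and none lower, beside 34.8% and 31.5% of all genes tested. The summed FPKM of the hepatocyte markers was 1467 to 1848 in parental libraries and 2289 to 2715 in labelled ones. The keratins KRT8 and KRT18 made up most of these sums, with means of 1102 and 517 in parental and 1775.5 and 635 in labelled libraries. ALB averaged 0.885 and 15.2 and passed the filter only through the labelled libraries. SERPINA1 averaged 0.212 and 0.151 and was not tested, and HNF4A averaged 9.64 and 7.91 and was not called. After the GC and length correction 6 markers were called higher and 1 lower. The part of the hepatocyte markers in the APOE and MTTP differences was not tested.

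The third comparison set the parental MHCC97H cells against the vector PLC/PRF5 cells, the starting levels of the lines. It shares its control libraries with the comparisons above, and the line cannot be told apart from how each line was grown and prepared. Most members were lower in MHCC97H cells. APOB had a mean FPKM of 126 in vector PLC/PRF5 cells and 1.27 in parental MHCC97H cells, a difference of -5.76 (SE 0.19, adjusted p = 1.99e-08). APOE differed by -4.26 (SE 0.13, adjusted p = 9.50e-09), with 20.6 times as much in PLC/PRF5 cells. APOM had a mean FPKM of 43.2 in vector cells and 0.471 in parental cells. The gap was smaller for MTTP, at -1.80 (SE 0.09, adjusted p = 1.99e-07). APOA2 had an FPKM of 60.3 to 74.3 in vector libraries and was listed at 0 in every parental library. APOA1, whose vector level entered the choice of topic, differed by -1.63 (SE 0.18).

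APOH went the other way. It had a mean FPKM of 14.0 ± 3.44 (SD, n = 3) in vector PLC/PRF5 cells and 29.0 ± 2.61 in parental MHCC97H cells, a difference of 1.03 (SE 0.17, adjusted p = 4.66e-04). APOC1 was lower by 0.68 on the log2 scale (SE 0.13, adjusted p = 0.00123), but with the GC and length correction the difference was 0.09 (adjusted p = 0.318), so its direction turned. APOC3, with a mean FPKM of 0.842 in vector cells, was listed at 0 in parental cells. APOC3 and APOA4 were under the filter, and when every gene above 0 in at least 1 library was tested APOC3, which is there through its vector level, was called lower and APOA4 was not called (adjusted p = 0.993). Of the 10 members 8 were tested, with 1 called higher and 7 lower, beside 38.8% and 40.9% of all 12046 genes tested. APOA1, APOA2 and APOM passed the filter only through their vector levels. The groups of all 8 did not overlap, beside 81.0% of all genes. Hepatocyte markers were called lower in 10 of 11 tested, with a summed FPKM of 4287 to 4505 in vector libraries and 1467 to 1848 in parental MHCC97H libraries, and their part in the member differences was not tested. KRT8 and KRT18 made up most of the parental sum. Of the markers called lower, ALB, SERPINA1, AFP and AHSG passed the filter only through their vector levels, so nothing is read from their count.

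Genes that act on the same particles were taken from 5 lists. Among 17 other apolipoproteins only 4 passed the filter in PLC/PRF5 cells, with APOC2 called higher and CLU, or clusterin (apolipoprotein J), called lower by 0.53 on the log2 scale, and a median of 0.17. Over all genes tested, 19.2% were called higher and 10.4% lower. In MHCC97H cells 3 of 4 were called higher, with a median of 0.62, beside 34.8% of all genes tested. CLU was among them (difference 0.57, SE 0.10, adjusted p = 0.0013), and with the GC and length correction it differed by 0.40 (SE 0.06, adjusted p = 0.00146). APOL1, a trypanolytic protein of HDL, had a mean FPKM of 0.219 in vector PLC/PRF5 cells and 15.3 in parental MHCC97H cells.

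The genes of lipoprotein assembly and secretion include COPII coat subunits, cargo receptors and triglyceride synthases. Of 16 genes 14 were tested in PLC/PRF5 cells, 1 was called higher and 3 lower, and their median was 0.06 beside 0.09 over all genes. The shares over all genes tested were 19.2% higher and 10.4% lower. PLA2G12B, a secreted-phospholipase family protein that takes part in loading lipid onto lipoproteins, was the one called higher, with an FPKM of 5.09 ± 0.622 (SD, n = 3) in vector cells and 7.76 ± 1.30 in EGR1 cells. LPCAT3, which puts polyunsaturated chains into phospholipids, was called lower, at 22.6 ± 3.17 and 11.9 ± 0.0476. Of the list 4 genes were called in all, against 2 without vector replicate 1, without EGR1 replicate 3 or with quantile normalization and 1 without EGR1 replicate 2. In the libraries labelled knockout 5 of 13 were called higher and 5 lower, beside 34.8% and 31.5% of all genes tested, with a median of 0.15. After the GC and length correction 6 were called higher and 1 lower, with a median of 0.26. LPCAT3 rose there by 0.77 as deposited (SE 0.09, adjusted p = 1.46e-04) and by 0.52 with the correction (SE 0.06, adjusted p = 2.93e-04).

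Genes of HDL formation and plasma remodelling moved in both directions in EGR1 cells, with 1 of 6 tested called higher and 4 lower. Of all genes tested 19.2% were called higher and 10.4% lower, and the median of the 6 was -0.37. With the GC and length correction 2 were called higher and 2 lower. The 5 calls became 3 without vector replicate 1, vector replicate 3, EGR1 replicate 1 or EGR1 replicate 3. ABCA1, the transporter that passes cholesterol to APOA1, was the one called higher. It had an FPKM of 1.71, 1.68 and 1.90 in vector libraries and 5.23, 4.56 and 5.39 in EGR1 libraries, a difference of 1.13 (SE 0.10) without overlap. ANGPTL4, an inhibitor of lipoprotein lipase, was called lower, with an FPKM of 22.9, 22.7 and 19.9 in vector libraries and 7.67, 7.49 and 6.47 in EGR1 libraries (difference -1.48, SE 0.10). In the libraries labelled knockout 3 of 6 were called higher and none lower, beside 34.8% and 31.5% of all genes tested, with a median of 0.47. After the GC and length correction 3 were called higher and 1 lower, with a median of 0.25. ANGPTL4 was the gene called lower with the correction, its difference being -0.24 as deposited (adjusted p = 0.195) and -0.93 corrected (adjusted p = 0.00193). ABCG1, which exports cholesterol to HDL, rose in the libraries labelled knockout from 2.21 ± 0.119 to 5.67 ± 0.163 (difference 1.06, SE 0.10, adjusted p = 5.37e-05). With the correction its difference was 0.80 (SE 0.07, adjusted p = 1.35e-04).

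Of 9 receptor and uptake genes reported and tested in EGR1 cells, 1 was called higher and 5 lower, beside 19.2% and 10.4% of all genes tested, with a median of -0.45. SCARB1, the receptor that takes cholesterol ester from HDL, had an FPKM of 272, 263 and 276 in vector libraries and 109, 118 and 124 in EGR1 libraries. It differed by -1.21 (SE 0.09). In the libraries labelled knockout 3 of 10 were called higher and 2 lower, beside 34.8% and 31.5% of all genes tested, with a median of 0.01. SCARB1 rose there by 0.73 (SE 0.12, adjusted p = 7.10e-04), and by 0.34 (SE 0.07, adjusted p = 0.00623) with the GC and length correction. In parental MHCC97H cells against vector PLC/PRF5 cells LSR, the lipolysis-stimulated receptor, had a mean FPKM of 0.288 against 69.4, and the fatty acid receptor CD36 one of 11.6 against 0.0541. Each passed the filter only through the line where it was high.

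The transcription factors known to act on apolipoprotein genes made up the last list. Of its 20 genes, 17 were tested in PLC/PRF5 cells, with 2 called higher and 3 lower and a median of -0.01, beside shares of 19.2% and 10.4%. With the GC and length correction 4 were called higher and 2 lower, and as deposited 3 genes were called without vector replicate 1, vector replicate 3, EGR1 replicate 2 or EGR1 replicate 3, or when every gene above 0 in at least 1 library was tested. HNF4A, the nuclear receptor that drives many apolipoprotein genes in liver, had an FPKM of 58.3, 35.0 and 43.7 in vector libraries and 51.0, 49.1 and 61.1 in EGR1 libraries, which overlapped. ONECUT1, a liver homeobox factor, was called higher (difference 0.82, SE 0.14), as was NR5A2, the liver receptor homolog (0.64, SE 0.11). CREB3L3, a hepatic factor that controls triglyceride genes, was called lower, at 21.6 ± 4.26 (SD, n = 3) against 10.8 ± 1.68. In the libraries labelled knockout 10 of 13 were called higher and none lower, with a median of 0.72. The shares over all genes tested were 34.8% higher and 31.5% lower. CREB3L3 was among those called higher (difference 0.97, SE 0.12, adjusted p = 1.60e-04). After the GC and length correction 8 were called higher and 1 lower, with a median of 0.29, and CREB3L3 differed by 0.44 (adjusted p = 0.011). As deposited, HNF4A differed by -0.26 in the libraries labelled knockout (SE 0.18, adjusted p = 0.223). Between the lines HNF4A had a mean FPKM of 45.6 in vector PLC/PRF5 cells and 9.64 in parental MHCC97H cells (difference -2.12, SE 0.19, adjusted p = 1.09e-05). Of 19 listed factors tested between the lines, 5 were called higher and 11 lower, beside 38.8% and 40.9% of all genes tested. The largest differences in each direction were those of NR1H4 (2.82) and FOXA3 (-2.69). Some of these factors passed the filter only through the line where they were high. Among them were NR1H4 and NR2F1, called higher, and NR0B2, PROX1, ONECUT1 and NR5A2, called lower, so nothing is read from these counts.

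**Figure D4:**
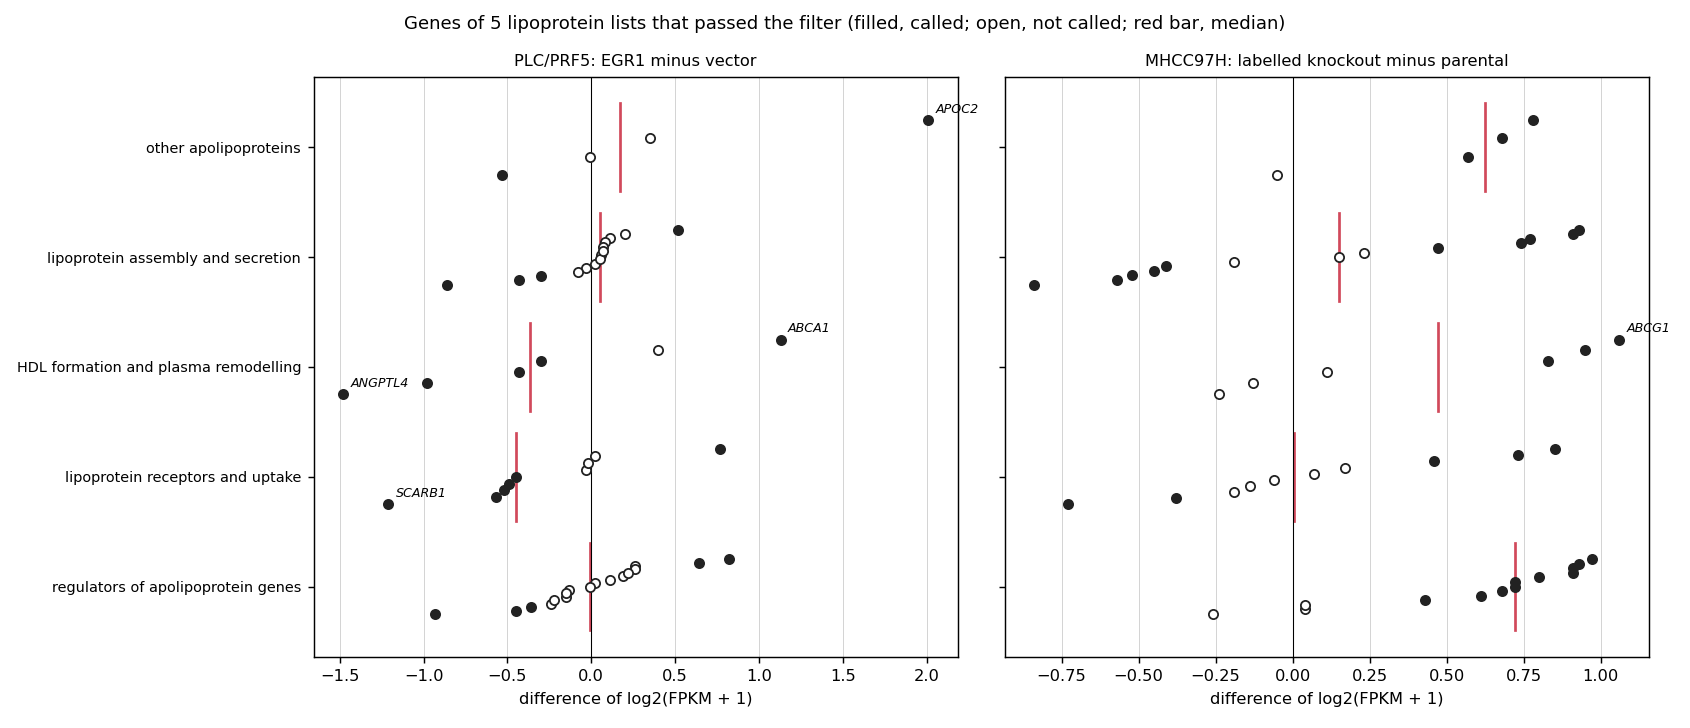
Differences on the log2(FPKM + 1) scale of the tested genes in 5 lipoprotein lists, for EGR1 overexpression (left) and the libraries labelled knockout (right), with the median of each list as a red bar. ABCA1 lies on the right of 0 and ANGPTL4 and SCARB1 on the left in PLC/PRF5 cells, and ABCG1 is the farthest point above 0 in MHCC97H cells.

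The 5 genes whose pattern over the 12 libraries was most like that of APOA1 were found by the mean absolute difference of log2(FPKM + 1) values, each centred on its own mean, among 13284 genes. They were CPE, a carboxypeptidase of peptide hormone processing (0.89), LOXL4, a lysyl oxidase (0.98), KRT23, a keratin (0.99), IGFBP1, a liver-made binding protein of insulin-like growth factors (1.04), and DOK7, an adaptor of muscle synapses (1.06). CPE had a mean FPKM of 17.7 in vector cells and 126 in EGR1 cells and was listed at 0 in the MHCC97H libraries. IGFBP1 had 261 ± 20.1 (SD, n = 3) in vector cells and 920 ± 87.8 in EGR1 cells. DOK7 was the only one of the 5 that, like APOA1, was low in vector cells, at 0.0891 ± 0.0287, against 12.9 ± 0.173 in EGR1 cells. No apolipoprotein was among the 5.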

How the data were processed

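Total RNA from the 12 libraries was enriched for mRNA on oligo(dT) beads. A duplex-specific nuclease step on each library removes abundant double-stranded cDNA and can compress high levels. The authors deposited 1 table of FPKM for 22963 gene names, 3031 of them assembled loci. The submitters' processing notes name StringTie and hg38, and the aligner, annotation, strand setting and versions are not given in the sources used here. All columns were used. FPKM hide the number of reads behind them, so depth, counting error and detection floors are unknown and count models were not used.

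Values were transformed to log2(FPKM + 1), which understates the change of low genes. Each comparison was fitted with limma 3.58.1 (R 4.3.3) with an intensity trend and no covariate, over genes whose FPKM averaged 1 or more in its 6 libraries, 2-sided, with Benjamini-Hochberg adjustment over all genes tested and calls at 0.05 or less. The smallest p that an exact permutation of 3 and 3 libraries allows is 0.1. For the GC and length correction, spline trends with 5 degrees of freedom were removed from each library. GENCODE release 29 gave positions for 97.6% of 19932 named genes. On simulated data the fits recovered 78% of genes changed by 1 on the log2 scale and 90% of those changed by 2 in the PLC/PRF5 comparison (11575 genes), 85% and 93% in the MHCC97H comparison (11483 genes), and 85% and 93% between the lines (11721 genes). The simulation changed 200 genes and drew noise independently for each gene and library. It held no trend with GC content or length, unlike the data, so these recovered shares need not hold for the fits above. Figures used matplotlib 3.10.9 (Python 3.11.15).

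The members, lists and tests were chosen with earlier results of these data known. Genes were eligible to be named by a rule: the 10 members, EGR1 as a check, the genes within 200 kb of APOA1 or APOE, up to 6 genes called with a difference of at least 1 in each list and comparison, and the 5 genes most like APOA1. Not every list gene or neighbour that met the rule is named. The list genes named with a smaller difference (CLU, PLA2G12B, LPCAT3, HNF4A, ONECUT1, NR5A2 and CREB3L3) were chosen after their values were seen. Some genes of the receptor and uptake list are not reported here, and its counts leave them out. Each fit was repeated with a threshold of 0.01, with each library left out in turn, with the replicate block, with the GC and length correction (with the block too), on all 12 libraries at once, without the limma trend, after quantile normalization or scaling to a common total, with a pseudocount of 0.1, and over every gene whose FPKM exceeded 0 in 1 library or more.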

Additional observations from a re-analysis of the deposited data

How the results depend on the processing

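In EGR1 cells against vector cells, the 3 members called became 6 with the replicate block (APOA2, APOB and APOC3 added), 4 with quantile normalization (APOA2 added), with all 12 libraries in one fit (APOB added) and over every gene above 0 in at least 1 library (APOA4 added, lower), 5 with the GC and length correction, alone or with the block (APOA2 and MTTP added, MTTP lower), and 3 to 4 when 1 library was left out, with APOA2 added without EGR1 replicate 1. The number of all genes called was 3457 as deposited, 1468 at a threshold of 0.01, 2246 without vector replicate 3, 1919 without EGR1 replicate 2 and 2208 without EGR1 replicate 3. For the knockout-labelled libraries 7671 genes were called, 4959 with the GC and length correction and 5039 with the block added, and members called ranged from 2 to 4. Between the lines, members called ranged from 7 to 9. The difference of APOM in EGR1 cells turned from 0.02 to -0.01 with a common total and ran from -0.10 to 0.20 with a library left out, that of APOE in the libraries labelled knockout from 0.63 to -0.14 with the GC and length correction with or without the block, and that of APOC1 between the lines from -0.68 to 0.09 with that correction with or without the block. The cause was not tested. Of 359 single-gene differences under alternatives, 330 kept their direction and side of the threshold, 8 lost the call, 13 gained one and 8 changed sign. The replicate numbers share no stated culture or day, and same-numbered libraries had correlations of their deviations of -0.13, 0.14 and -0.08 in PLC/PRF5 cells, 0.03, 0.03 and 0.47 in MHCC97H cells and -0.39, -0.01 and -0.05 between the lines, so the numbers were not taken as pairs, and not every library correlated best with its own number.

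Levels under an FPKM of 1, such as APOA4 and APOC3, carry an unknown number of reads. In EGR1 cells against vector cells, APOA4 entered the fit over every gene above 0 only through its vector libraries.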
